A study of Mus musculus with 20 samples.

Results

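The genes described are 33 protein-coding genes of ribosome biogenesis, taken by symbol from a fixed list. All 33 were found among the 23090 genes of each count file, and all 33 passed the filter on low counts in every comparison, so none is missing from the counts below. The rule uses no measured value, but the list was proposed with earlier results of these data known. They were followed across 20 poly-A RNA libraries of tumour-associated myeloid cells: 5 of monocytic myeloid-derived suppressor cells (mMDSC) and 5 of granulocytic ones (gMDSC) from vehicle-dosed mice, and 5 of each from mice dosed with a CBP/EP300 bromodomain inhibitor.

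All mice were female SCID.beige animals, 6 to 8 weeks old, a strain without T and B cells and with impaired NK cells, and all carried tumours grown from injected cells. The tumours were MDA.MB.231-X1.1 or CT26, and no label ties a library to either line, so the line cannot be told apart from the groups. From a tumour volume of 150 to 200 mm3 the mice received, by oral gavage BID for 7 days, either the vehicle MCT or 25 mg/kg of GNE-781, here called CBPi. CBP and EP300 are histone acetyltransferases, and the bromodomain is the part that binds acetylated lysine. Cells were sorted as CD45+CD11b+Ly6C+F4/80-, the mMDSC being Ly6G- and the gMDSC Ly6G+. Vehicle libraries are numbered 1 to 5 and CBPi libraries 6 to 10 in each population. No label says whether libraries are of separate mice, so every p-value measures the spread between these samples, part of which may be technical.

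Ribosomes are assembled mainly in the nucleolus. RNA polymerase I transcribes a long precursor ribosomal RNA, small nucleolar ribonucleoproteins (snoRNPs) modify it, of which the box C/D particles methylate and the box H/ACA particles pseudouridylate, and a large set of processing factors cut and fold it into the small and the large subunit. The genes of this machinery are classical targets of the transcription factor MYC and tend to be high in growing and dividing cells. The 33 members cover 3 nucleolar scaffold proteins and chaperones, 3 box C/D and 3 box H/ACA snoRNP proteins, 4 genes of RNA polymerase I and its regulators, 8 factors of the small subunit and 12 of the large one.

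Library totals ran from 12372630 to 26635889 counts. Levels are given as CPM, counts per 1e6 counts after TMM scaling over the 20 libraries. Folds are edgeR log2 fold changes from the libraries of each comparison, and a member is said to have risen or fallen at an adjusted p under 0.05. In bulk RNA, fewer cells of a type and less RNA per cell cannot be told apart. The gates showed in part in the RNA. The 8 neutrophil markers summed to 8830 to 35250 CPM with vehicle in gMDSC and 7116 to 13570 with CBPi, against 217.3 to 443.1 over the mMDSC libraries, with none at 0 throughout. The Ly6g transcript itself was low even in vehicle gMDSC, at 0.438 to 9.2 CPM, and Adgre1, which encodes F4/80, stood at 438.4 to 1520 CPM over all libraries. The 8 macrophage markers summed to 7254 to 8933 CPM in vehicle mMDSC and 5717 to 7709 with CBPi. In gMDSC they summed to 11640 to 19370 CPM with vehicle and 6174 to 11630 with CBPi. Every vehicle gMDSC library thus lay above every mMDSC library, although both gates were F4/80-. Vehicle gMDSC 3 stood apart, with the highest neutrophil sum of all libraries and the highest member sum of its group, and the members' counts and medians are given without it where it moves them by over 1.5 times or changes a call.

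Per length, nucleolin led the members in these cells. In the RPKM values that the authors deposited, Ncl, which encodes an abundant RNA-binding protein of the nucleolus, had a median of 82.1 over the 20 libraries (range 48.5 to 107.7). Nhp2 followed at 51.9, then Ebna1bp2 at 41.9, Imp4 at 40.7 and Nop56 at 35.8 (lowest 17.3, highest 95.3 over these 4). The ranges of these 5 genes over the libraries overlapped. The last 3 were the RNA polymerase I subunits Polr1a at 1.92 and Polr1b at 1.69 and the small-subunit factor Utp20 at 1.05 RPKM, again with overlapping ranges. Npm1, in most tissues among the highest of these genes, was at 5.30 RPKM and Fbl at 1.95. Both have near-identical copies in the mouse genome, and the counts of Fbl were identical to those of another gene ID in every library, so these values are uncertain.

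Summed over the 33 members, levels were higher in most mMDSC than in most gMDSC libraries. The sums were 1709, 1676, 1650, 1613 and 1586 CPM in vehicle mMDSC 1 to 5 and 1630, 1561, 1647, 1611 and 1616 in CBPi mMDSC 6 to 10. They were 1318, 1234, 1626, 1267 and 1355 in vehicle gMDSC and 1155, 1060, 1162, 1317 and 1195 in CBPi gMDSC. The treatment groups overlapped in both populations, while every CBPi gMDSC library lay below every mMDSC library. Vehicle gMDSC 3 was the single vehicle gMDSC library inside the mMDSC range.

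**Figure D1:**
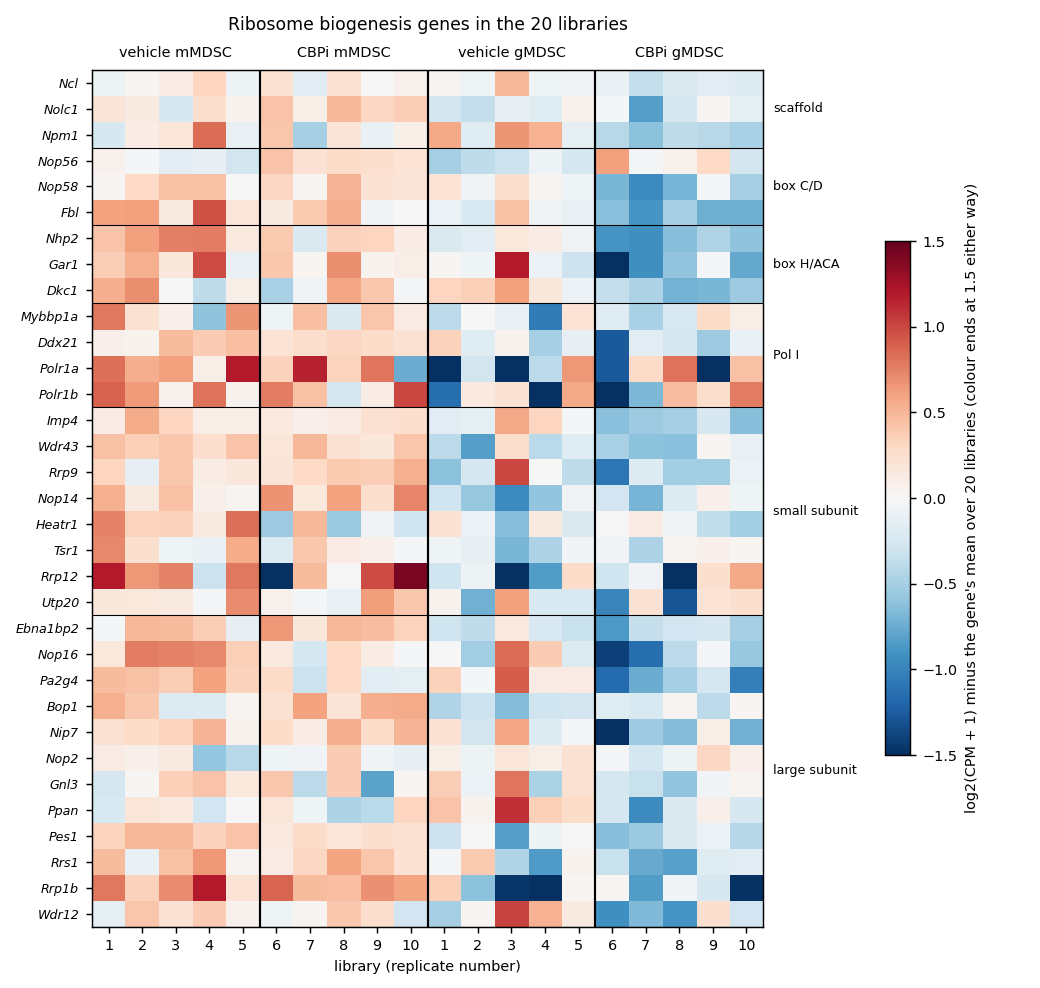
Heat map of the 33 members in the 20 libraries. Each cell is log2(CPM + 1) minus the gene's mean over the 20 libraries, columns are libraries by group and replicate number, and genes run down the side by role, from the highest to the lowest RPKM within a role. The CBPi gMDSC columns are mostly blue (summed levels of 1060 to 1317 CPM) and the mMDSC columns mostly red (1561 to 1709 CPM), and vehicle gMDSC 3 is the reddest of its group for genes such as Ncl, Gar1, Rrp9 and Ppan.

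In the genome the members lie on 17 chromosomes. Of the 33, 8 (24.24%) hold annotated snoRNA genes within their span, 21 snoRNA genes in all, compared with 371 of the 21647 positioned genes in the files (1.714%). The hosts are Ncl, Nop56, Nop58, Dkc1, Wdr43, Tsr1, Gnl3 and Ppan. Nop56 (chromosome 2, 130274367 to 130279313) holds 5, among them Snord57 and Snord110, and Nop58 (chromosome 1, 59684961 to 59711510) holds 4, so both of these box C/D genes host snoRNA genes. snoRNAs carry no poly-A tail, and their levels were not analysed here. The spans of 9 members overlap another coding gene, Nop56 with Idh3b, Dkc1 with Mpp1 and Nhp2 with Rmnd5b among them. Whether the counting used strand is not given in the sources used here, so reads in such overlaps cannot be assigned with certainty. Coordinates are from RefSeq on GRCm38.p6.

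The promoter windows of Nop56, Pa2g4, Dkc1 and Nhp2, the 4 members that passed the test with CBPi, and of Nop58, the uncalled partner of Nop56, are printed because Nop56 rose and the other three fell. They come from RefSeq on GRCm38.p6, each running 5′ to 3′ on the gene's strand. Each window covers 250 bases before its start site to 50 after it. For Nop56 and Nop58 this site lies downstream of the gene start given above. Capitals mark matches to 4 motifs on either strand: the E-box CACGTG bound by MYC, the ETS core CCGGAAG, the GC box GGGCGG and the CCAAT box. Overlapping matches are joined.
Nop56 promoter, chr2:130274162-130274461, plus strand: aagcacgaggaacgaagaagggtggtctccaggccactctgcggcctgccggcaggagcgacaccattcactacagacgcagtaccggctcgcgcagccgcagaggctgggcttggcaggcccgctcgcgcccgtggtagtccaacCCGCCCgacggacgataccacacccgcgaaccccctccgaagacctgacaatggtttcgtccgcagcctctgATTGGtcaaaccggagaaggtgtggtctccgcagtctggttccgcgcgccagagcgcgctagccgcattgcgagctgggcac
Nop58 promoter, chr1:59684756-59685055, plus strand: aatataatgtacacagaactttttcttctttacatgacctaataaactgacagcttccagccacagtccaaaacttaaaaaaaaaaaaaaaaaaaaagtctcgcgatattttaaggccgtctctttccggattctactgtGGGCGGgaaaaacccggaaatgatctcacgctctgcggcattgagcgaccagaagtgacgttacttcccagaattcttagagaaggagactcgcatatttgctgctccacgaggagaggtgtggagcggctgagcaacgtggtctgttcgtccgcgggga
Pa2g4 promoter, chr10:128565885-128566184, minus strand: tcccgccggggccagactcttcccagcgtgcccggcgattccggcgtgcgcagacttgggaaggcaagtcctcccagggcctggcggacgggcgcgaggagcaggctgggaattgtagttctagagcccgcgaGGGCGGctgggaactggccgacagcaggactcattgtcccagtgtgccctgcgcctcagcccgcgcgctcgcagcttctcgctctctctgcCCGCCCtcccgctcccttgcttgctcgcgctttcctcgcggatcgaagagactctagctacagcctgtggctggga
Dkc1 promoter, chrX:75095604-75095903, plus strand: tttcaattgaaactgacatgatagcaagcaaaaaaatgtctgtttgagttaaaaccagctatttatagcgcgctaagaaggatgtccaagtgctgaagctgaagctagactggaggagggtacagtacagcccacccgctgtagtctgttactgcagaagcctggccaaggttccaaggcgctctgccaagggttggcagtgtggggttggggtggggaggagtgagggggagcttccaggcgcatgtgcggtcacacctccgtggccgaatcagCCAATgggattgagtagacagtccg
Nhp2 promoter, chr11:51619523-51619822, plus strand: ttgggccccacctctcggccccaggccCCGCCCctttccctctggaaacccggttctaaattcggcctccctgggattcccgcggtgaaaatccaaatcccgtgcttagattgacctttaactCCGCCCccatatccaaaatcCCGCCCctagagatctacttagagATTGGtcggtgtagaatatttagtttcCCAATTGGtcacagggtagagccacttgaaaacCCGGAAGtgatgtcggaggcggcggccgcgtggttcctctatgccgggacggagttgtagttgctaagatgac

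None of these 5 windows held a CACGTG. Nop56 had 1 GC box and 1 CCAAT box, Nop58 had 1 GC box, Pa2g4 had 2 GC boxes and Dkc1 had 1 CCAAT box. Nhp2 had 3 GC boxes, 1 ETS core and 3 CCAAT matches, of which a pair overlap on opposite strands. Windows were found for 28 members. Of these, 7 (25.0%) held an E-box, namely Imp4, Mybbp1a, Nop2, Pes1, Tsr1, Utp20 and Wdr43, compared with 8.093% of the 27025 genes with a window. The ETS core was found in 9 (32.14%, all genes 9.928%), the GC box in 21 (75.0%, all genes 38.2%) and the CCAAT box in 9 (32.14%, all genes 41.06%). None of the 7 members with an E-box was called with CBPi in either population. Only 1 of the 33 members was called in mMDSC and 3 in gMDSC, too few for this to say anything about the motif. Of the 7, Imp4 was called lower in gMDSC by DESeq2 and in 1 fit of all 20 libraries. A match describes letters in a window and is not evidence of a bound factor.

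With CBPi, 1 of the 33 members rose in mMDSC, Nop56, and 0 fell. Of the 11912 genes tested 3.02% rose and 5.54% fell (8.56% in either direction), so the share of members that rose, 3.03%, was that of all genes. The median log2 fold change of the members was -0.08 (range -0.65 to 0.37) beside 0.01 over all genes tested, and 23 of 33 lay below 0. At an unadjusted p under 0.05 there were 1 higher and 4 lower members, where 1210 and 1454 of the 11912 genes passed that limit. DESeq2 called 1 higher and 3 lower (Heatr1, Nop16 and Pa2g4), and limma-voom 1 and 0. For these tools only calls of members are given, here and below. The share of all genes they called is not given, so a larger count does not show a stronger response. With library totals in place of TMM, the median of all genes shifted to 0.13 and that of the members to 0.04, with 5.82% of all genes higher and 4.08% lower, and the members' counts stayed at 1 and 0.

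Nop56, whose promoter window held a GC box and a CCAAT box, encodes a core protein of the box C/D snoRNPs. Its levels were 113.9, 106.8, 97.9, 100.0 and 89.8 CPM in vehicle mMDSC 1 to 5 and 146.4, 126.4, 131.6, 129.9 and 125.3 CPM in CBPi mMDSC 6 to 10. All 5 treated libraries lay above all 5 vehicle ones. The log2 fold change was 0.37 ± 0.10 (SE; edgeR adjusted p = 0.0393). The call was narrow: leaving out 1 library at a time it held only without vehicle mMDSC 1 or 4, and was lost without any of the other 8 (adjusted p up to 0.0987, log2 fold change 0.33 to 0.415). It was also lost without the count filter (adjusted p = 0.0597) and in 1 fit of all 20 libraries (adjusted p = 0.151). In gMDSC Nop56 was at 77.1, 83.4, 87.1, 103.4 and 90.4 CPM with vehicle and 167.4, 107.5, 113.9, 134.6 and 89.7 CPM with CBPi. There the groups overlapped through CBPi gMDSC 10, and the log2 fold change of 0.51 ± 0.18 did not pass (adjusted p = 0.0896).

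Its partners in the same particle were not called. Nop58, the paralogous core protein, was at 48.7, 59.0, 65.4, 65.0 and 47.7 CPM in vehicle mMDSC and 59.6, 48.8, 68.8, 56.0 and 55.0 CPM with CBPi, with a log2 fold change of 0.00 ± 0.13 (95% interval -0.26 to 0.26). In gMDSC it went from 55.3, 46.5, 57.2, 49.5 and 45.9 CPM to 29.3, 24.2, 29.1, 47.2 and 33.7 CPM. Only CBPi gMDSC 9 reached the vehicle range, and the fold of -0.60 ± 0.19 had an adjusted p of 0.0673. Fbl, the methyltransferase of the particle, was at most 6.88 CPM in any library. It had log2 fold changes of -0.39 ± 0.29 in mMDSC (adjusted p = 0.473) and -0.99 ± 0.44 in gMDSC (adjusted p = 0.173).

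In gMDSC, CBPi lowered 3 members, Pa2g4, Dkc1 and Nhp2, and raised none. That is 9.09% of the members, where 5.52% of the 11694 genes tested fell and 4.18% rose (9.71% in either direction). The members had a median log2 fold change of -0.26 (range -1.05 to 0.54) beside 0.00 over all genes, with 24 below 0. At an unadjusted p under 0.05, 10 members were lower and 1 was higher, where 1664 and 1366 of the 11694 genes were. DESeq2 called 7 lower and 1 higher, Nop56, and limma-voom 3 and 0, again without the share of all genes called by these tools. Without vehicle gMDSC 3 the median was -0.14, and the 3 calls held. The count fell to 1 without CBPi gMDSC 7, 8 or 10.

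Pa2g4, a nucleolar growth-related protein that binds ribosomal RNA and ribosomes, had the largest called change. It stood at 45.9, 35.2, 68.3, 39.2 and 39.3 CPM in vehicle gMDSC and 15.5, 21.0, 25.1, 29.9 and 17.2 CPM in CBPi gMDSC. The groups did not overlap. The log2 fold change was -1.03 ± 0.24 (adjusted p = 0.0187), and it lost its call without CBPi gMDSC 7 or 10 (adjusted p up to 0.053). In mMDSC Pa2g4 was also without overlap, at 50.1, 49.2, 46.5, 55.1 and 45.7 CPM against 43.9, 28.4, 44.3, 32.2 and 32.2 CPM, but the change of -0.46 ± 0.14 did not pass (adjusted p = 0.0712).

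Dkc1 encodes dyskerin, the pseudouridine synthase of the box H/ACA snoRNPs, which is also part of telomerase. Its levels in gMDSC were 29.0, 29.6, 35.8, 25.97 and 21.5 CPM with vehicle and 17.7, 16.4, 13.7, 13.9 and 15.4 CPM with CBPi. These ranges were apart, and the log2 fold change was -0.84 ± 0.20 (adjusted p = 0.02; lost, at 0.0554, only without CBPi gMDSC 8 among the 10 libraries left out in turn). In mMDSC the values were spread from 17.4 to 37.8 CPM with vehicle and from 16.1 to 34.8 CPM with CBPi, at a log2 fold change of -0.12 ± 0.24 (adjusted p = 0.828).

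Nhp2, a small core protein of the same particle, had 34.4, 35.4, 44.8, 43.5 and 38.5 CPM in vehicle gMDSC and 21.3, 20.7, 25.4, 29.2 and 26.1 CPM in CBPi gMDSC. Its promoter window held the most motif matches of the 5 printed. The groups did not overlap (log2 fold change -0.64 ± 0.18, adjusted p = 0.0371). This was the least steady of the 3 calls: it held without vehicle gMDSC 1 or 3 or CBPi gMDSC 9, and was lost without any of the other 7 libraries (adjusted p up to 0.106). It was also lost without the count filter, on library totals and without both vehicle gMDSC 3 and 5 (log2 fold change -0.63, -0.61 and -0.57). In mMDSC its levels were 54.3, 62.1, 68.5, 69.0 and 44.6 CPM against 53.0, 34.4, 51.1, 50.5 and 43.5 CPM. Those groups overlapped (-0.37 ± 0.16, adjusted p = 0.174). Gar1, the remaining H/ACA member, had the lowest log2 fold change of all members in gMDSC, -1.05 ± 0.43, at an adjusted p of 0.145. Its vehicle values were 6.84 to 8.80 CPM in 4 libraries and 21.2 in vehicle gMDSC 3, against 2.07 to 8.51 with CBPi.

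**Figure D2:**
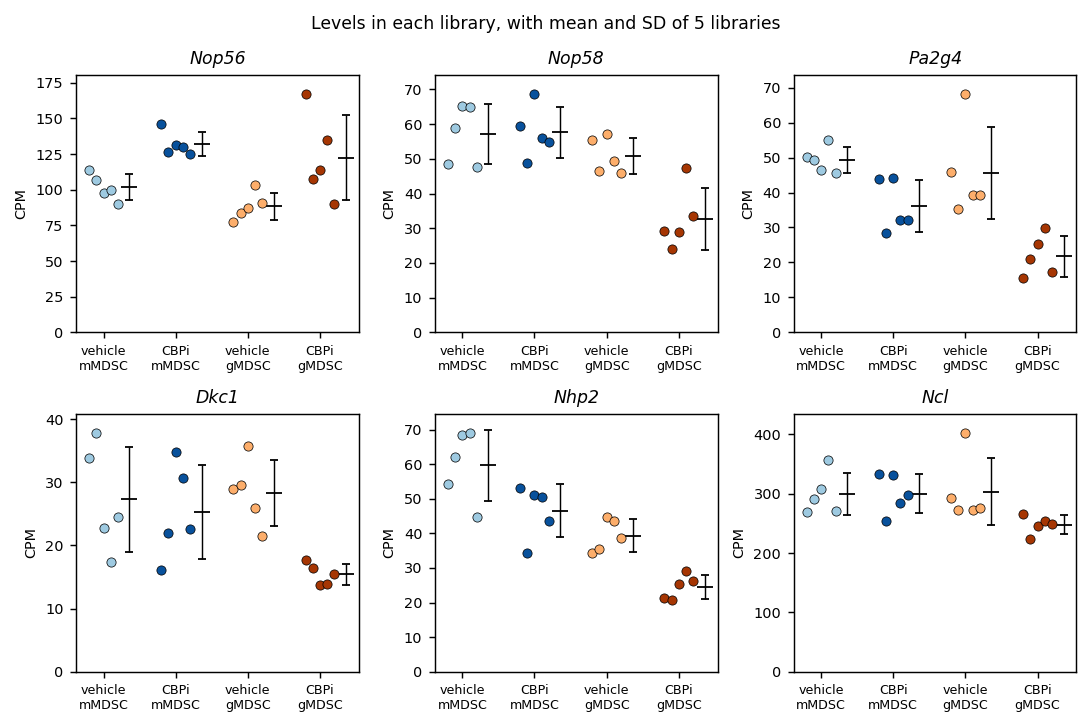
CPM of Nop56, Nop58, Pa2g4, Dkc1, Nhp2 and Ncl in every library (points; 5 per group) with the mean and SD beside them; axes start at 0. Nop56 is higher with CBPi in mMDSC (125.3 to 146.4 against 89.8 to 113.9 CPM), and Pa2g4, Dkc1 and Nhp2 are lower with CBPi in gMDSC without overlap.

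The remaining roles gave no called change with CBPi in either population. Of the scaffold genes, Ncl was at 269.2 to 356.2 CPM in vehicle mMDSC and 254.1 to 332.8 with CBPi (-0.01 ± 0.11, adjusted p = 0.984). In gMDSC it was at 293.3, 272.5, 402.5, 272.1 and 276.7 CPM against 266.1, 222.9, 245.6, 253.5 and 249.7 CPM (-0.26 ± 0.15, adjusted p = 0.298; -0.14 without vehicle gMDSC 3). Nucleophosmin, Npm1, which shuttles between nucleolus and cytoplasm, did not overlap in gMDSC, at 6.51 to 12.4 against 4.53 to 5.52 CPM, yet its change of -0.86 ± 0.30 had an adjusted p of 0.0912. Nolc1, a chaperone of snoRNPs, had -0.01 ± 0.19 in gMDSC and 0.25 ± 0.13 in mMDSC.

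The 4 genes around RNA polymerase I had a median of -0.11 in mMDSC and 0.21 in gMDSC, with none called. Mybbp1a, a nucleolar protein that restrains ribosomal RNA transcription and the highest of the 4 per length, was at 60.6 to 161.7 CPM in vehicle mMDSC and 79.9 to 127.8 with CBPi, and at 44.5 to 107.2 against 66.1 to 112.2 CPM in gMDSC. Both changes were within their errors (-0.15 ± 0.24 and 0.16 ± 0.23). The large subunits Polr1a and Polr1b varied widely between libraries. Polr1b ranged from 0.353 to 11.7 CPM within vehicle gMDSC alone, and the 95% interval of its fold there ran from -1.29 to 1.82. Ddx21, an RNA helicase of polymerase I transcription and processing, had -0.32 ± 0.26 in gMDSC.

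Among the 8 small-subunit factors the medians were -0.09 in mMDSC and -0.03 in gMDSC. Imp4, a component of the U3 processome and the highest of them per length, was at 52.1, 53.0, 87.6, 73.7 and 57.8 CPM in vehicle gMDSC and 37.6, 40.2, 41.5, 49.5 and 37.4 CPM with CBPi. The lowest vehicle and the highest treated library lay so close that their order depended on the scaling, and the change of -0.62 ± 0.18 just missed the threshold (adjusted p = 0.0521). In mMDSC Heatr1, a factor of polymerase I transcription and early processing, had the lowest value of any member there, -0.65 ± 0.22 (adjusted p = 0.0897), at 81.6 to 132.3 CPM with vehicle and 50.5 to 104.9 with CBPi. In gMDSC the same gene had -0.01 ± 0.19.

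The 12 large-subunit factors had medians of -0.06 in mMDSC and -0.37 in gMDSC. Besides Pa2g4, Ppan, a factor of large-subunit assembly, was at 25.96 to 54.5 CPM in vehicle gMDSC and 12.4 to 26.3 with CBPi (-0.76 ± 0.25, adjusted p = 0.0717). Nop16, a factor of large-subunit precursors, had -0.53 ± 0.16 in mMDSC (adjusted p = 0.0665). Bop1, Pes1 and Wdr12, which form the PeBoW complex, had differing values: in gMDSC their log2 fold changes were 0.29 ± 0.16, -0.13 ± 0.23 and -0.87 ± 0.43, none of them called. Ebna1bp2, the highest of the class per length, had 0.17 ± 0.14 in mMDSC and -0.19 ± 0.17 in gMDSC.

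**Figure D3:**
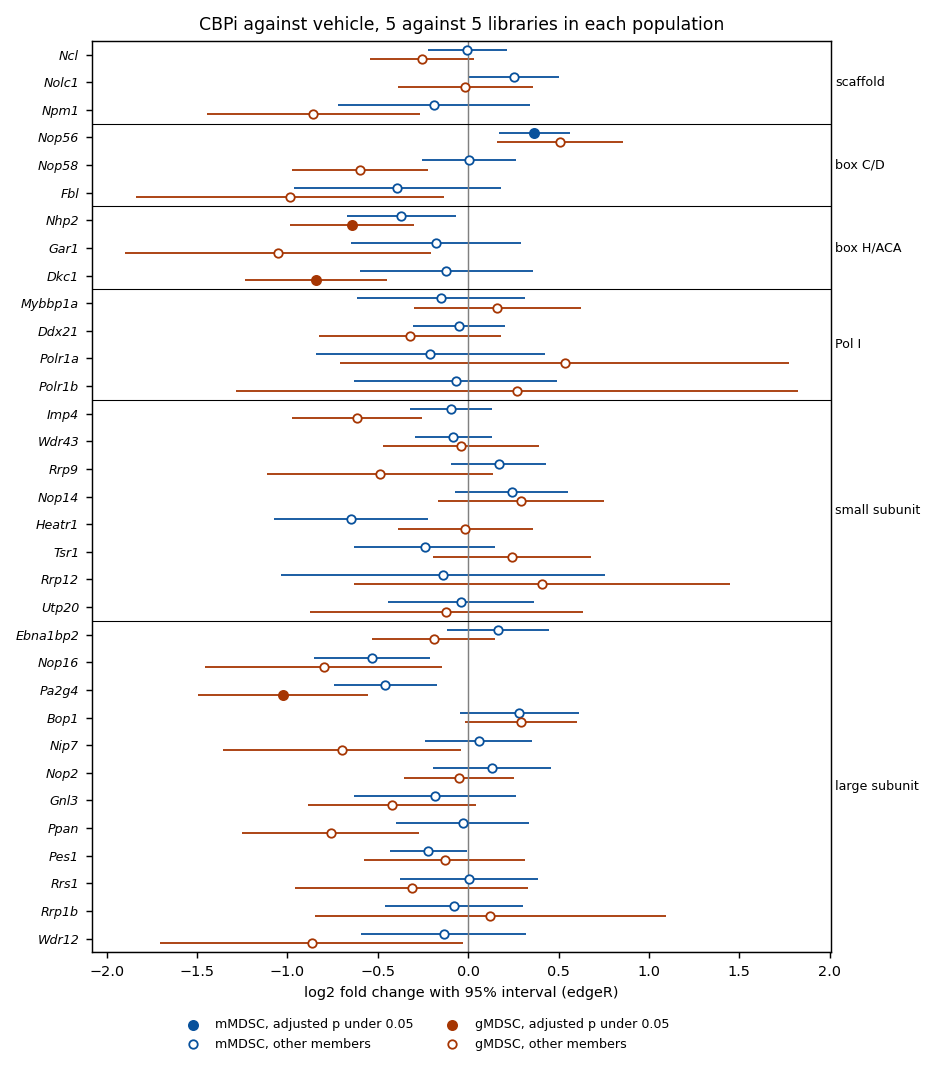
Log2 fold change of CBPi against vehicle for the 33 members by role, in mMDSC (blue) and gMDSC (orange), with 95% intervals; filled points have an edgeR adjusted p under 0.05. Nop56 is filled in mMDSC (0.37), and Pa2g4 (-1.03), Dkc1 (-0.84) and Nhp2 (-0.64) are filled in gMDSC.

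The difference between the gMDSC and the mMDSC response was tested directly over the 20 libraries. No member passed in either direction, where 0.497% of the 12688 genes tested were higher in gMDSC and 0.229% lower (0.725% in either direction). At an unadjusted p under 0.05, 6 members responded lower in gMDSC and 0 higher, where 727 and 727 of the 12688 genes did, and DESeq2 and limma-voom also called 0. On library totals 0.473% of all genes were higher and 0.363% lower, around a median of -0.11. The median difference was -0.31 beside -0.04 over all genes, and -0.21 without vehicle gMDSC 3. Nop58 had the smallest p, with a difference of -0.65 (95% interval -1.11 to -0.19, adjusted p = 0.26), followed by Imp4 at -0.56 (-0.98 to -0.15, adjusted p = 0.287). For Pa2g4 the difference was -0.62 (-1.18 to -0.06, adjusted p = 0.408), for Dkc1 -0.77 (-1.39 to -0.15, adjusted p = 0.345) and for Nhp2 -0.32 (-0.76 to 0.12, adjusted p = 0.637). Nop56 had 0.10 (-0.29 to 0.49, adjusted p = 0.899). Intervals that do not include 0, as for Nop58, Imp4, Pa2g4 and Dkc1, are not adjusted for the number of genes.

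Within gMDSC the size of the response went with the deposited width, the length in bases that the authors' files give. The authors label these counts as coding, and the width is not the genomic span. Npm1, for example, has a width of 888 bases and spans 33152498 to 33164142 on chromosome 11. Short and long refer to this deposited width. All 8 members of up to 1000 bases, among them Nhp2, Gar1, Fbl and Npm1, lay below 0, at a median of -0.75, where the 3609 genes of that width had a median of -0.28. The 17 members over 1000 and up to 2500 bases had a median of -0.26 (all genes 0.09). The 8 members over 2500 bases, such as Polr1a, Rrp12 and Mybbp1a, had a median of 0.21 (all genes 0.22), and 3 of them lay below 0. The class limits were chosen after the values were seen. Across the 33 members, which share their libraries, Pearson's r between log2 width and log2 fold change was 0.71, and across all 11694 genes it was 0.24. In mMDSC the same coefficients were 0.08 and 0.07.

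The short-against-long balance also varied between libraries of 1 group. Taking the median deviation of short genes minus that of long genes over all genes tested, the log2 values ran from -0.27 to 0.74 in vehicle gMDSC, with vehicle gMDSC 3 at 0.74, and from -0.76 to -0.02 in CBPi gMDSC. They ran from -0.26 to 0.70 in vehicle mMDSC and from -0.27 to 0.42 in CBPi mMDSC. With a width trend taken out of each library, an alternative added after the data were seen, 3 members were lower in gMDSC: Pa2g4 (-1.04, adjusted p = 0.0172) and Dkc1 (-0.98, adjusted p = 0.0142) were still called, Nhp2 was not (-0.33, adjusted p = 0.245), and Nop58 was added. In mMDSC the same fit lost Nop56 (0.33, adjusted p = 0.0583) and called 3 members lower, Heatr1, Nop16 and Pa2g4. The part of the width trend in the other values was not tested.

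**Figure D4:**
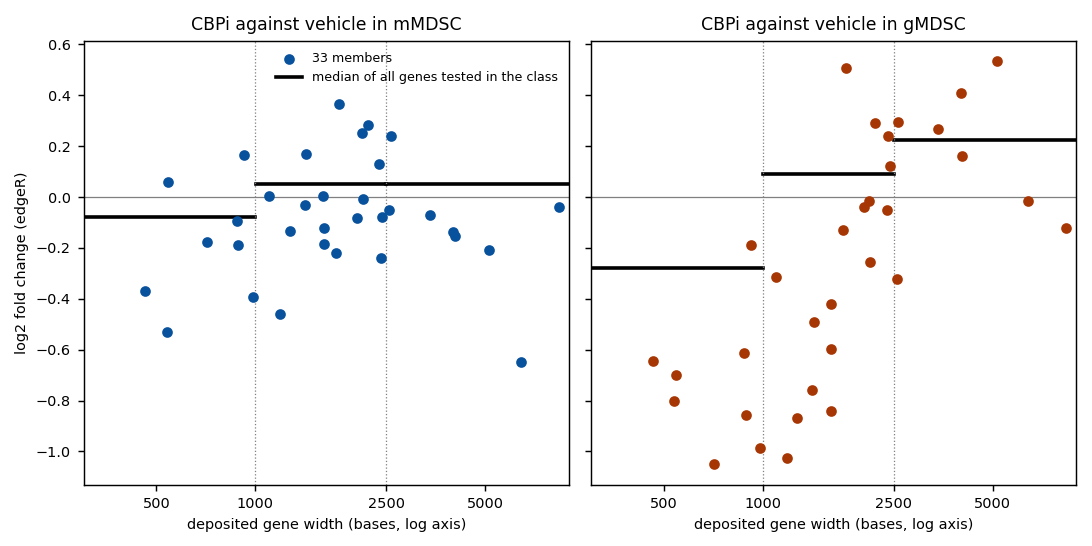
Log2 fold change of CBPi against vehicle for the 33 members (points) against the deposited gene width in bases (log axis), in mMDSC (left) and gMDSC (right); black bars are the medians of all genes tested in 3 classes split at 1000 and 2500 bases. In gMDSC the 8 shortest members all lie below 0 (median -0.75) and the 8 longest have a median of 0.21, while no such trend shows in mMDSC.

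Between the populations the called members were all lower in gMDSC. These comparisons reuse the libraries of the CBPi comparisons, so they are not independent of them. In vehicle, 5 members were lower in gMDSC, namely Nhp2, Wdr43, Nop14, Pes1 and Heatr1, and 0 were higher, that is 15.15% of the members where 8.08% of the 11576 genes tested were lower and 13.6% higher (21.7% in either direction). The median log2 fold change was -0.35 beside -0.06 over all genes. At an unadjusted p under 0.05, 11 were lower and 1 higher, where 1682 and 2098 of the 11576 genes were, and DESeq2 called 7 and 1, limma-voom 6 and 0. Without vehicle gMDSC 3, 5 members were lower, Ebna1bp2 in place of Heatr1 (adjusted p = 0.0605), at a median of -0.48. Under CBPi, 18 members were lower in gMDSC and 0 higher, that is 54.55% where 19.1% of the 11895 genes tested were lower and 20.1% higher (39.2% in either direction), at a median of -0.60 beside -0.05. There 20 were lower and 0 higher at an unadjusted p under 0.05, where 2857 and 2756 of the 11895 genes were, and DESeq2 and limma-voom each called 19 and 0.

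In vehicle the called folds were moderate. Wdr43, a scaffold of the early small-subunit processome, was at 87.0, 81.9, 84.6, 76.6 and 86.0 CPM in mMDSC and 48.3, 35.6, 77.2, 48.1 and 56.4 in gMDSC, where library 3 reached the lowest mMDSC value (-0.63 ± 0.19, adjusted p = 0.0289). Nop14, which is needed for the small-subunit precursor, was at 28.3 to 40.1 CPM in mMDSC and 13.6 to 26.5 CPM in gMDSC (-0.72 ± 0.22, adjusted p = 0.0298). Pes1, of the PeBoW complex, had 35.3 to 39.6 against 15.3 to 27.8 CPM (-0.63 ± 0.20, adjusted p = 0.0354). The 5 calls rested on few libraries: each held in 2 to 6 of the 10 fits that left out 1 library, and the count fell to 1 without vehicle mMDSC 1, 2 or 3 or vehicle gMDSC 2 or 4. Ncl and Dkc1 had 0.03 ± 0.15 and 0.08 ± 0.23 in vehicle, and -0.35 and -0.33 with library totals in place of TMM.

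Under CBPi all 3 box H/ACA genes were lower in gMDSC, with Nhp2 at -0.87 ± 0.16 (adjusted p = 0.000817), Gar1 at -1.06 ± 0.33 (adjusted p = 0.0201) and Dkc1 at -0.66 ± 0.21 (adjusted p = 0.0209). Of the large-subunit factors 7 of 12 were lower, led by Ebna1bp2, which acts on the large-subunit precursor, at 110.0, 78.5, 99.0, 96.6 and 88.5 CPM in mMDSC and 38.0, 54.9, 57.0, 58.9 and 49.2 CPM in gMDSC. The groups were apart by a wide gap (-0.82 ± 0.15, adjusted p = 0.000695). Of the small-subunit factors 4 of 8 were lower (Imp4, Rrp9, Nop14 and Wdr43), of the box C/D genes Nop58 and Fbl, of the scaffold genes Nolc1, and of the polymerase I genes Ddx21. Imp4 had 61.9 to 70.1 CPM in mMDSC against 37.4 to 49.5 CPM in gMDSC (-0.63 ± 0.12, adjusted p = 0.00109).

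Of the 6 snoRNP genes, Nop56 alone was not called under CBPi, at 125.3 to 146.4 CPM in CBPi mMDSC and 89.7 to 167.4 CPM in CBPi gMDSC (-0.05 ± 0.15, 95% interval -0.35 to 0.24, adjusted p = 0.816). Of the 18 calls, 14 held in all 10 fits that left out 1 library. Dkc1 was lost without CBPi mMDSC 8 or 9, Gar1 and Nolc1 without CBPi mMDSC 8, and Ddx21 without CBPi gMDSC 9. All 18 held with the width trend removed. A scaling by library totals shifted the median of all genes between the populations to -0.43 in vehicle and -0.53 under CBPi and called 20 and 29 members lower. On that scaling 8.72% of all genes were higher and 23.4% lower in vehicle, and 10.9% and 42.5% under CBPi. The change of the population difference from vehicle to CBPi is the difference of responses, where 0 members passed.

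**Figure D5:**
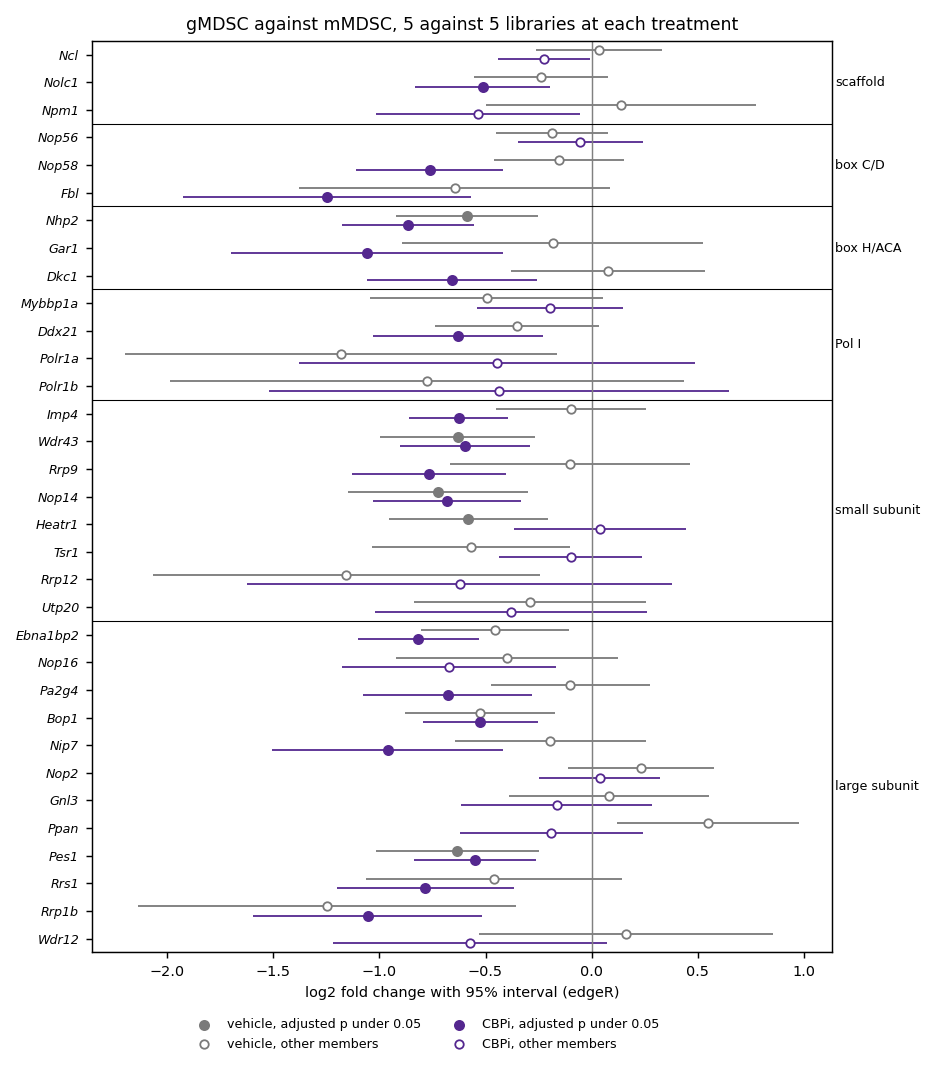
Log2 fold change of gMDSC against mMDSC for the 33 members by role, in vehicle (grey) and under CBPi (purple), with 95% intervals; filled points have an edgeR adjusted p under 0.05. In vehicle 5 members are filled and under CBPi 18, all of them below 0.

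Other genes of the pathway, 125 listed with earlier results known, were all tested. With CBPi in mMDSC, 0 were higher and 3 lower (Noc4l -0.50 ± 0.11, adjusted p = 0.0145; Exosc5 -0.58 ± 0.13; Nvl -0.51 ± 0.13), and the median was 0.06. In gMDSC Ruvbl2 rose (0.78 ± 0.21) and Wdr18 (-0.63 ± 0.16) and Nop10 (-0.99 ± 0.29) fell, with a median of -0.12. Nop10 is a further core protein of the box H/ACA snoRNPs. In mMDSC 2.4% of the 125 fell and 0 rose, where 5.54% and 3.02% of all genes did. In gMDSC 1.6% fell and 0.8% rose, where 5.52% and 4.18% of all genes did. In the difference of responses 0 of the 125 passed, where 0.725% of all genes did in either direction. Between the populations, 14 were lower in vehicle gMDSC, Noc4l, Tcof1, Brix1, Pum3 and Sdad1 first, and 2 higher, Utp4 and Ubtf, at a median of -0.44. That is 11.2% lower and 1.6% higher, where 8.08% and 13.6% of all genes were. Under CBPi 55 were lower (44%) and 4 higher (3.2%), where 19.1% and 20.1% of all genes were, at a median of -0.54.

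The structural proteins of the ribosome were followed beside the members. Of 79 ribosomal protein genes, 76 were tested in mMDSC, where 1 fell with CBPi and 0 rose, at a median log2 fold change of -0.23. In the difference of responses 0 of 77 tested passed, at a median of -0.70, where 0.725% of all genes passed in either direction. In gMDSC 8 of 69 tested fell and 0 rose, Rps3, Rpl5, Rpl22 and Rpl4 among them, at a median of -0.89. That is 11.59% lower, where 5.52% of all genes fell. Of all genes of up to 1000 bases 8.89% fell there, at a median of -0.28. Many ribosomal protein genes are shorter still, and of all genes of up to 500 bases 10.99% fell, at a median of -0.475. Their summed level ran from 1393 to 3988 CPM in vehicle gMDSC, highest in library 3, and from 844.5 to 1356 CPM with CBPi. Many of these genes are short and have processed pseudogenes, so their counts are uncertain. Between the populations 0 of 70 passed in vehicle, and 27 of 73 were lower and 1 higher under CBPi. The latter are 36.99% lower and 1.37% higher, where 19.1% and 20.1% of all genes were. Of all genes of up to 1000 bases, 28.47% were lower and 14.09% higher, and of those of up to 500 bases 31.51% and 11.53%. The part of gene width in these shares was not tested.

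Neither Myc nor the drug targets themselves passed with CBPi. Myc was at 54.0, 43.1, 53.2, 44.8 and 39.7 CPM in vehicle mMDSC and 25.1, 39.6, 38.2, 36.4 and 35.2 CPM with CBPi. The highest treated value lay just under the lowest vehicle one, and the fold of -0.44 ± 0.15 did not pass (adjusted p = 0.103). In gMDSC Myc had -0.10 ± 0.23 (adjusted p = 0.821), with a difference of responses of 0.29 ± 0.27 (adjusted p = 0.755). Between the populations it had -0.32 ± 0.20 in vehicle (adjusted p = 0.309) and 0.01 ± 0.19 under CBPi (adjusted p = 0.972). Crebbp, which encodes CBP, and Ep300 had 0.20 ± 0.21 and 0.16 ± 0.16 in mMDSC and -0.04 ± 0.24 and 0.29 ± 0.17 in gMDSC. Their differences of responses were -0.29 ± 0.34 and 0.07 ± 0.24. Both were higher in gMDSC than in mMDSC, by 0.91 ± 0.28 and 0.53 ± 0.17 in vehicle and by 0.67 ± 0.16 and 0.64 ± 0.16 under CBPi.

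Some division genes fell with CBPi. Mki67, a marker of cycling cells, fell with CBPi in mMDSC (-1.16 ± 0.31, adjusted p = 0.0344) and in gMDSC (-1.26 ± 0.16, adjusted p = 0.000564). The difference of these responses was -0.16 ± 0.36 (adjusted p = 0.908). It was higher in gMDSC than in mMDSC, by 0.93 ± 0.20 in vehicle and 0.82 ± 0.29 under CBPi. Of 18 proliferation genes 5 fell in mMDSC (27.78%, all genes 5.54%) and 3 in gMDSC (16.67%, all genes 5.52%). In vehicle 9 were higher in gMDSC (50%, all genes 13.6%) and under CBPi 15 (83.33%, all genes 20.1%), with none lower. The medians of these population differences were 0.969 and 0.915. Summed, the 18 were at 318.2 to 583.4 CPM with vehicle and 273.9 to 318.1 with CBPi in mMDSC. The sums in gMDSC were 537.2 to 847.7 with vehicle and 384.6 to 515.4 with CBPi. The called division genes were thus higher in gMDSC while the called members were lower there, over the same libraries.

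Markers of the sorted types changed in the same comparisons, where 5.54% of all genes fell with CBPi in mMDSC and 5.52% in gMDSC. Of the genes of the gate's surface proteins, some of them also in the marker lists, 4 of 5 tested fell in mMDSC (median -0.65). In gMDSC 2 of 6 fell (median -0.85), and 0 rose in either population. Of the neutrophil list, 2 of 7 tested fell with CBPi in mMDSC and 2 of 8 in gMDSC. Of the 8 monocyte markers 4 were lower in each, and in gMDSC F13a1 was higher (3.36 ± 0.52, adjusted p = 0.00203), with a difference of responses of 3.19 ± 0.55 (adjusted p = 0.00767). The monocyte sums in mMDSC were 5093 to 6259 CPM with vehicle and 3212 to 4588 with CBPi. In gMDSC the sums were 1690 to 3758 CPM with vehicle and 1707 to 2364 with CBPi. The part of these markers in the members' results was not tested.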

How the data were processed

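Each library had 1 deposited file, with a count, an RPKM value and a width in bases for every Entrez gene ID. The authors' counts are whole reads per gene, not normalized. RPKM values, as the authors deposited them, were used only to order genes per length. GSNAP aligned the reads to GRCm38, per the submitters' processing notes; counter and strand setting: not given in the sources used here. Symbols came from a RefSeq table of GRCm38.p6, which matched 21647 of 23090 IDs and left 1443 unmatched.

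The edgeR quasi-likelihood test (edgeR 4.0.16, R 4.3.3) was run on counts with TMM factors. Genes were kept by filterByExpr, with a minimum count of 10 and a minimum total of 15, over the libraries compared, and p-values were adjusted over all genes kept (Benjamini-Hochberg, threshold 0.05). Each fit held its own 2 groups, except the difference of responses, fitted to all 20 libraries. Each SE is the absolute log2 fold change over the root of the F statistic. The fits were run on simulated counts drawn without a width trend or an outlying library, so those features of the data were not tested there. Alternatives were RLE and library-total scaling, no filter, DESeq2 1.42.0, limma-voom (limma 3.58.1), 1 fit of 20 libraries, a replicate block and leaving out each library. Removing a lowess trend on log2 width from each library, and leaving out vehicle gMDSC 3 and 5, were added after the data were seen.

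The members and lists were chosen with earlier results of these data known. Values per library are given for members past the threshold with CBPi or in the difference of responses, and for the member of each role with the highest level per length. Up to 5 other pathway genes or ribosomal proteins per comparison and direction are named by smallest p, with Myc, Mki67, Crebbp and Ep300. Other names are examples chosen after their values were seen. Results for some listed genes are not reported here.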

Additional observations from a re-analysis of the deposited data

Results flagged for a closer look

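In 136 groups of 5 libraries (the 33 members and their sum, in 4 groups), the highest or lowest library was set against the others by Dixon's gap-to-range ratio (critical value 0.71). Chance gives about 1 such library in 20 groups, and 8 were found. In vehicle gMDSC 3 there were 6: Ncl at 402.5 CPM (next 293.3), Gar1 at 21.17 (next 8.80), Rrp9 at 63.04 (next 31.1), Ebna1bp2 at 77.63 (next 59.5), Ppan at 54.46 (next 33.9) and Fbl at 4.483 (next 2.92). The other two were Utp20 in vehicle mMDSC 5, at 23.76 CPM (next 16.0), and Nop2 in CBPi mMDSC 8, at 66.74 CPM (next 49.6). None of these 8 genes was called with CBPi in either population.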

How the results depend on the processing

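Counts of called members changed as follows. In mMDSC, the 1 member higher became 0 without the count filter, with all 20 libraries in 1 fit and with the width trend removed, and the 0 lower became 3 with DESeq2 and 3 with the width trend removed. In gMDSC, DESeq2 called 1 higher and 7 lower, and the fit over 20 libraries called 1 higher and 10 lower. Library totals, no filter and leaving out vehicle gMDSC 3 and 5 each gave 2 lower there, without Nhp2. Between the populations in vehicle, 20 were lower with library totals (median -0.73), 3 without the filter and 9 in the fit over 20 libraries, and DESeq2 called 1 higher. Under CBPi, library totals called 29 lower (median -1.07). The cause of these differences was not tested. Shares of all genes called by DESeq2, limma-voom, the fit over 20 libraries and the replicate block are not given here. These counts therefore do not show whether the members changed more than other genes.

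Single genes reversed sign near 0. In mMDSC, Ncl had 0.12 with library totals and 0.004 in the fit over 20 libraries, and Nop58 had -0.033 with the width trend removed. Between the populations in vehicle, Dkc1 had -0.33 and Ncl -0.35 with library totals, and Ncl had -0.092 without vehicle gMDSC 3 and 5.

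Leaving out 1 library at a time, mMDSC gave 0 to 1 higher and 0 to 1 lower (median -0.10 to -0.06), gMDSC 0 higher and 1 to 4 lower (-0.30 to -0.14), and the difference of responses 0 and 0 (-0.35 to -0.19). The populations gave 0 higher and 1 to 5 lower in vehicle (-0.48 to -0.26), and 0 higher and 15 to 20 lower under CBPi (-0.63 to -0.54).
Signs also turned for Nop58 (-0.063 to 0.06), Dkc1 (-0.257 to 0.016) and Ncl (-0.04 to 0.07) in mMDSC, for Nop56 in the difference of responses (-0.038 to 0.208), for Dkc1 (-0.046 to 0.216) and Ncl (-0.10 to 0.11) between the populations in vehicle and for Nop56 under CBPi (-0.188 to 0.037).

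Whether same-numbered libraries of the populations share a mouse is not stated, and they were not treated as pairs: their deviations correlated at -0.03 to 0.17, over 0.1 in 2 of 10 pairs, and 4 of 10 libraries correlated best with their own number. With a replicate block, 1 member, Wdr43, was lower in gMDSC in vehicle and Heatr1, Nhp2, Nop14 and Pes1 were not called (median -0.37), 18 under CBPi (17 shared, Nop16 in place of Dkc1), and 0 passed in the difference of responses (median -0.33).

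The members at a few CPM had wide intervals, for Polr1b in gMDSC from -1.29 to 1.82 for the CBPi response. The part of depth in this was not tested.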
